A study of Saccharomyces cerevisiae with 6 samples.

Results

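The genes described here serve inositol supply, phospholipid synthesis and breakdown, and triacylglycerol storage in budding yeast. They were chosen by name as 38 genes of these pathways, and all 38 were among the 5420 genes read on the array. Of these, 37 carried their own name in the symbol column of the authors' deposited table, and ECT1 was listed there under its older name MUQ1. Each was read by a single probe set.

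The cells were cultures of DBY746, labelled wild-type, and the question was how 300 ng/ml myriocin changes gene expression. Myriocin is a fungal product that inhibits serine palmitoyltransferase, the enzyme that begins sphingolipid synthesis. The 3 biological replicates of the Myriocin group received it with ethanol, and the 3 of the No-myriocin group received ethanol alone, so that all 6 cultures held 0.3% ethanol. Both groups grew at 30 °C in SDC medium from an A600 of 0.002 until collection at an A600 of 2. The study used this strain alone, at a single dose and a single cell density.

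Phospholipids in yeast are made from phosphatidate along branching routes. In the CDP-diacylglycerol route phosphatidylserine is decarboxylated to phosphatidylethanolamine and methylated to phosphatidylcholine, while the Kennedy pathway joins choline or ethanolamine to diacylglycerol. Phosphatidate phosphatase turns phosphatidate into diacylglycerol, the precursor of triacylglycerol in lipid droplets. Many genes of phospholipid synthesis are activated by the Ino2-Ino4 heterodimer and repressed by Opi1 when inositol is plentiful. The link to sphingolipids lies at phosphatidylinositol, which donates its inositol phosphate group to ceramide and leaves diacylglycerol.

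Values are log2 signals as the authors normalised them, and a log2 fold change is the Myriocin mean minus the No-myriocin mean. A gene is called when limma's p, Benjamini-Hochberg adjusted over all 5420 genes, lies under 0.05. The number of arrays limits the precision, and the SE of the log2 fold changes of these genes lay between 0.07 and 0.72 with a median of 0.11. All 38 genes lay above the background ceiling of 2.07 on every array, the lowest value being 3.60 for PLB2. The hybridisation controls are bacterial and phage RNAs added in equal amount to each array. All 26 of their probe sets above background were lower in the Myriocin group. Their log2 differences ran from -0.96 to -0.04, with a median of -0.25 and a mean of -0.315. Scaling the arrays to the mean of these controls raises every log2 fold change by 0.315. It moves the median of all genes to 0.29, against -0.03 as deposited. The drop was smaller for bright controls: it lay between -0.18 and -0.04 for 6 phage cre probe sets with mean log2 signals of 14.25 to 15.25, and between -0.36 and -0.20 for 6 bioD probe sets with means of 11.70 to 13.79. The shift of 0.315 exceeds the drop of every cre probe set, so for genes this bright it is larger than these controls show. Values with this scaling, called control-scaled below, are given wherever they change a direction or a call. Both groups carried alpha-cell transcripts, with MF(ALPHA)1 at 15.37 to 15.48 in Myriocin and 15.47 to 15.51 in No-myriocin arrays. Of the other alpha-cell genes MF(ALPHA)2 fell by 0.51 and STE3 by 0.40, calls lost control-scaled (limma adjusted p = 0.266 and 0.614), and STE3 lost its call also without Myriocin replicate 1 or No-myriocin replicate 2 (up to 0.0574). Of 4 a-cell genes MFA1 and MFA2 lay under the ceiling on every array, BAR1 just above it at 2.21 to 2.28 in both groups, and STE2 at 1.79 to 2.08 in Myriocin and at up to 3.03 in No-myriocin arrays, with none of them called. The labels do not state the mating type. Genes that mark growth without glucose moved with the groups, all 5 of the list being called higher, with a mean log2 signal over the list of 9.08 to 10.66 in Myriocin and 5.30 to 5.47 in No-myriocin arrays. Among them JEN1, the lactate transporter gene, lay at 10.16 to 12.25 in Myriocin and 2.09 to 2.11 in No-myriocin arrays. The call of PCK1, another of the 5, was not kept in every fit without 1 array (limma adjusted p up to 0.0512). Of 3 fermentation genes HXT1, a glucose transporter gene, fell by 2.59, HXT3 fell by 0.26, a call lost with the replicate number as a block (limma adjusted p = 0.0573) and without Myriocin replicate 1 or 2 or No-myriocin replicate 1 or 2 (up to 0.0817), and stood at 0.054 control-scaled, and PDC1 was not called. The part of this difference in the results below was not tested.

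Among the 38 genes, decreases outnumbered increases in cells grown with myriocin, which did not hold for the 62 further genes described below. The largest decrease among the 38 was in the activator gene INO2, at 11.6-fold lower, and the largest increase was in PAH1, the phosphatidate phosphatase gene, at 4.23-fold higher. CDS1, EPT1 and SLC1, which encode enzymes of phosphatidate and phospholipid synthesis, fell, while GPT2 of the same synthesis rose. OPI3, PIS1, CKI1, PCT1 and ECT1 of that synthesis were not called. The triacylglycerol lipase genes TGL4 and TGL5 rose, and TGL3 was not called. INO1, the gene of inositol synthesis, lay near the top of the signal scale in every culture, with a log2 fold change of 0.02 (SE 0.07). In bulk RNA, fewer cells carrying a transcript and less of it per cell cannot be told apart.

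In numbers, 5 of 38 genes rose (13.2%, against 25.5% of all genes tested) and 18 fell (47.4%, against 28.8% of all genes). The median log2 fold change of the 38 was -0.23. Control-scaled, 8 rose and 14 fell, where 39.9% of all genes rose and 12.0% fell, and the median turned to 0.08. The control-scaled counts by role and list below are to be read against these shares. Groups did not overlap for 26 of the 38 (68.4%), against 66.4% of all genes. Called changes of at least 2-fold were seen in 2 that rose (5.26%, against 8.95% of all genes) and 9 that fell (23.7%, against 7.51% of all genes). In the authors' deposited table, 25 of the 38 have an unadjusted p under 0.05, 5 of them with a ratio over 1 and 20 with a ratio under 1.

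**Figure D1:**
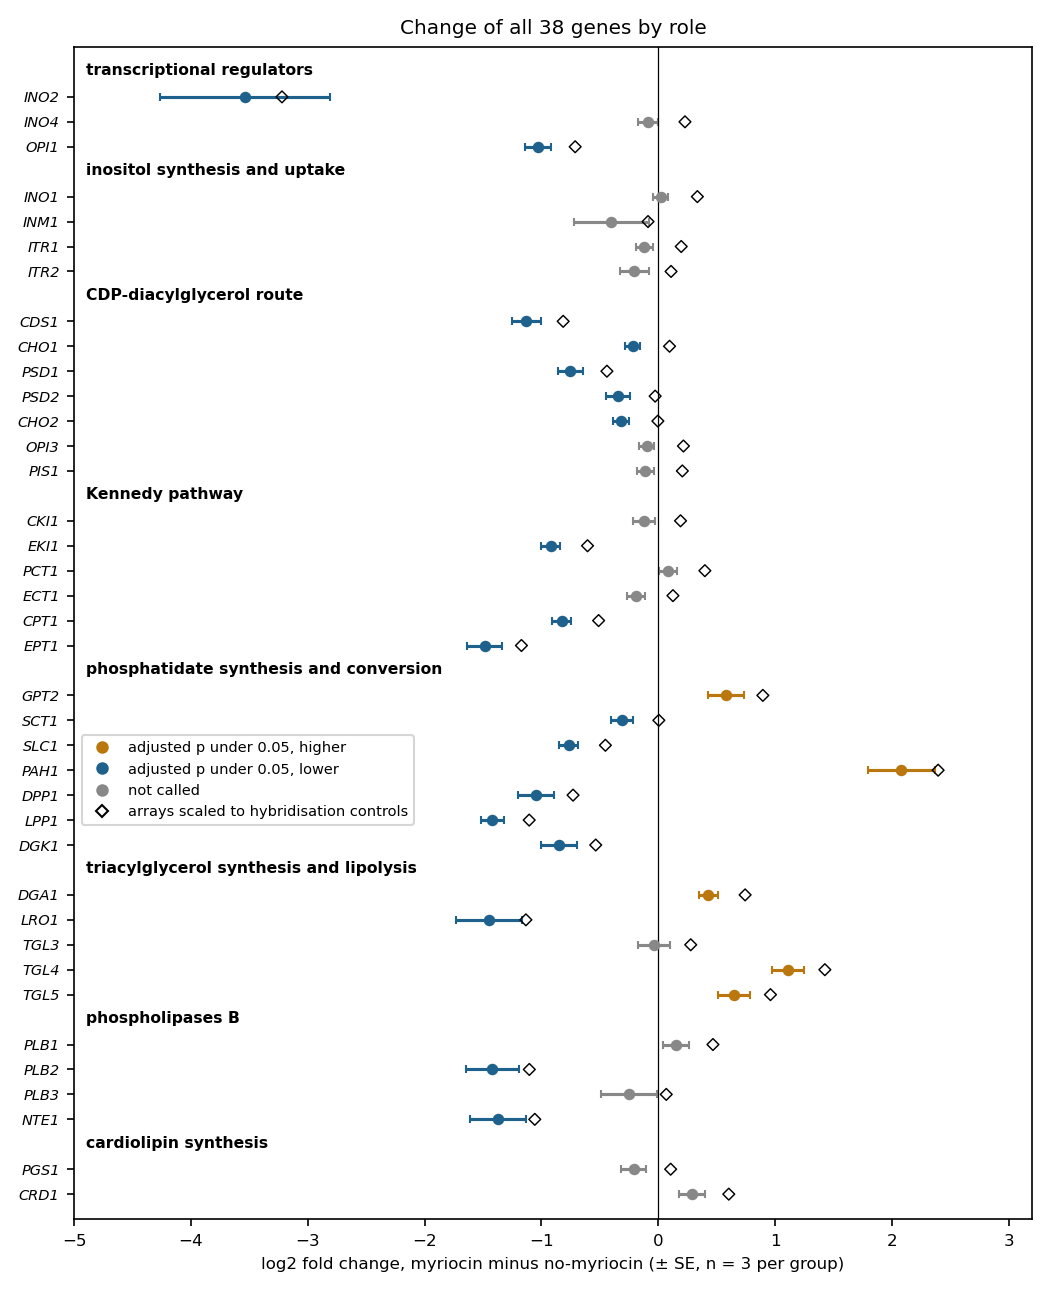
Log2 fold change (Myriocin minus No-myriocin, x axis) of the 38 genes by role. Filled points with bars are means ± SE of the deposited values (n = 3 per group) and open diamonds are control-scaled values, which lie 0.315 to the right. INO2 at -3.54 and PAH1 at 2.08 lie farthest out, and the sign of 12 genes turns with the scaling.

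Among the regulators of the pathway, INO2 and OPI1 fell and INO4 was not called. INO2, which encodes the activating subunit of the heterodimer, had log2 signals of 4.64, 5.63 and 7.48 in Myriocin cultures and 8.81, 9.60 and 9.96 in No-myriocin cultures. The groups did not overlap, and the Myriocin cultures spread over a wider range than for any other of the 38 genes. INO2 fell by 3.54 (SE 0.72, limma adjusted p = 0.00769), the 17th lowest of 5420 genes. The size depended on single cultures: the log2 fold change was -2.90 without Myriocin replicate 1 and -4.32 without Myriocin replicate 3, and it stayed called without any 1 array (limma adjusted p between 0.00317 and 0.0292). With the replicate number as a block the SE of INO2 was 0.37 (limma adjusted p = 0.00376).

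INO4 encodes the partner of Ino2 that is needed for binding to DNA. Its log2 signals were 11.97, 12.11 and 11.92 in Myriocin and 12.17, 12.05 and 12.04 in No-myriocin cultures. The groups overlapped, and its log2 fold change was -0.09 (SE 0.08, limma adjusted p = 0.408), or 0.23 control-scaled. OPI1, the repressor gene, had log2 signals of 11.41, 11.49 and 11.62 in Myriocin and 12.59, 12.67 and 12.34 in No-myriocin cultures. The replicates of OPI1 lay close together in each group and the groups were clearly apart. OPI1 fell by 1.03 (SE 0.11, limma adjusted p = 0.00078), a 2.04-fold decrease.

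None of the 4 genes of inositol synthesis and uptake was called, against 25.5% of all genes called higher and 28.8% called lower. INO1, encoding the inositol-3-phosphate synthase, had log2 signals of 15.22, 15.29 and 15.33 in Myriocin and 15.27, 15.28 and 15.24 in No-myriocin cultures. These values overlapped and lay close to 15.88, the highest log2 value on any array. Its limma adjusted p was 0.821, and control-scaled its log2 fold change was 0.34 (limma adjusted p = 0.0542). ITR1, the main inositol transporter gene, had log2 signals of 14.75 to 14.88 in Myriocin and 14.88 to 14.94 in No-myriocin cultures. Its log2 fold change was -0.12 (SE 0.07) and that of ITR2, the minor transporter gene, -0.21 (SE 0.13), and both turned positive control-scaled, at 0.20 and 0.11. INM1, an inositol monophosphatase gene, had log2 signals of 9.55, 10.44 and 10.50 in Myriocin and 10.10, 10.66 and 10.94 in No-myriocin cultures. INM1 was lower in the Myriocin member of each equally numbered pair. Its log2 fold change of -0.40 was not called (SE 0.32, limma adjusted p = 0.325), but was called with the replicate number as a block (limma adjusted p = 0.0268).

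In the CDP-diacylglycerol route 5 of 7 genes fell (71.4%, against 28.8% of all genes) and none rose, and control-scaled 2 fell and none rose. Without Myriocin replicate 1 or 3 or No-myriocin replicate 1 or 2, 3 fell. CDS1 encodes the synthase that makes CDP-diacylglycerol from phosphatidate. Its log2 signals were 12.71, 13.07 and 12.93 in Myriocin and 14.15, 14.08 and 13.86 in No-myriocin cultures, and CDS1 fell by 1.13 (SE 0.13, limma adjusted p = 0.000844). PSD1, the gene of the mitochondrial phosphatidylserine decarboxylase, had log2 signals of 12.84, 13.02 and 12.85 in Myriocin and 13.79, 13.72 and 13.47 in No-myriocin cultures. It fell by 0.75 (SE 0.11, limma adjusted p = 0.00192), and every Myriocin culture lay below every No-myriocin culture for both genes. CDS1 and PSD1 are the genes of the route that remained called control-scaled, at -0.81 and -0.44.

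The other decreases of the route were small. CHO2, the phosphatidylethanolamine methyltransferase gene, fell by 0.32 (SE 0.07), PSD2, the gene of the decarboxylase outside mitochondria, by 0.34 (SE 0.10), and CHO1, the phosphatidylserine synthase gene, by 0.22 (SE 0.07). CHO2 had log2 signals of 14.17 to 14.31 in Myriocin and 14.53 to 14.63 in No-myriocin cultures. Control-scaled, CHO1 turned to 0.10, and the calls of CHO1, CHO2 and PSD2 were lost (limma adjusted p = 0.54, 0.987 and 0.885). The call of CHO1 was lost also with the replicate block (limma adjusted p = 0.065) and without any 1 array but No-myriocin replicate 3 (0.0596 to 0.107). PSD2 lost its call without Myriocin replicate 1 or 3 or No-myriocin replicate 1 or 2 (limma adjusted p from 0.0826 to 0.0874). OPI3, which encodes the methyltransferase of the last steps to phosphatidylcholine, and PIS1, the phosphatidylinositol synthase gene, were not called, with log2 fold changes of -0.10 (SE 0.07) and -0.11 (SE 0.07) that turned to 0.22 and 0.21 control-scaled. OPI3 had log2 signals of 14.97 to 15.08 in Myriocin and 15.11 to 15.12 in No-myriocin cultures.

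In the Kennedy pathway 3 of 6 genes fell, against 28.8% of all genes, and none rose, against 25.5% of all genes. Control-scaled the count was 1 higher and 3 lower. The decreases lay at both phosphotransferases that close the pathway and at the ethanolamine kinase. EPT1, the ethanolamine phosphotransferase gene, had log2 signals of 11.87, 12.45 and 12.13 in Myriocin and 13.59, 13.64 and 13.68 in No-myriocin cultures. EPT1 fell by 1.49 (SE 0.15, limma adjusted p = 0.000609), a 2.80-fold decrease. CPT1, the choline phosphotransferase gene, had log2 signals of 13.01, 13.20 and 13.15 in Myriocin and 13.90, 14.01 and 13.92 in No-myriocin cultures. The gap was narrower than for EPT1, and CPT1 fell by 0.83 (SE 0.08, limma adjusted p = 0.000549). EKI1, the ethanolamine kinase gene, had log2 signals of 8.91, 9.04 and 8.91 in Myriocin and 9.77, 9.94 and 9.90 in No-myriocin cultures and fell by 0.92 (SE 0.08, limma adjusted p = 0.0004). For all 3 genes the distance between groups exceeded the spread within either group.

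The remaining genes of the pathway had log2 fold changes near 0: -0.12 for the choline kinase gene CKI1 (SE 0.09), 0.08 for PCT1, which encodes the enzyme that makes CDP-choline (SE 0.07), and -0.19 for ECT1, its counterpart for ethanolamine phosphate (SE 0.08, limma adjusted p = 0.0867). Control-scaled, CKI1 and ECT1 turned to 0.19 and 0.13, and PCT1 was called higher at 0.40 (limma adjusted p = 0.027).

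Phosphatidate synthesis and conversion was the group in which all 7 genes were called. Of these 2 were higher (28.6%, against 25.5% of all genes) and 5 lower (71.4%, against 28.8%). Control-scaled 2 were higher and 4 lower. PAH1 had log2 signals of 9.52, 8.97 and 9.24 in Myriocin and 7.66, 7.24 and 6.59 in No-myriocin cultures. It rose by 2.08 (SE 0.29, limma adjusted p = 0.00169), and the lowest Myriocin culture lay above the highest No-myriocin culture. DGK1 encodes the diacylglycerol kinase, which runs the reaction back to phosphatidate, and had log2 signals of 11.20, 11.67 and 11.70 in Myriocin and 12.34, 12.51 and 12.27 in No-myriocin cultures. DGK1 moved against PAH1 and fell by 0.85 (SE 0.15, limma adjusted p = 0.00489).

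The genes of the other lipid phosphate phosphatases fell. DPP1, encoding the diacylglycerol pyrophosphate phosphatase of the vacuole, had log2 signals of 11.74, 12.00 and 12.17 in Myriocin and 13.26, 12.97 and 12.82 in No-myriocin cultures and fell by 1.04 (SE 0.16, limma adjusted p = 0.00231). LPP1, its relative, had log2 signals of 9.73, 9.97 and 9.88 in Myriocin and 11.33, 11.36 and 11.14 in No-myriocin cultures and fell by 1.42 (SE 0.10, limma adjusted p = 0.00024). Of the 3 phosphatase genes, PAH1 alone rose.

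The acyltransferases that make phosphatidate from glycerol 3-phosphate were split. GPT2, a glycerol-3-phosphate acyltransferase gene, had log2 signals of 13.33, 12.92 and 13.20 in Myriocin and 12.68, 12.31 and 12.72 in No-myriocin cultures. Replicate 2 was the lowest of each group, and GPT2 rose by 0.58 (SE 0.16, limma adjusted p = 0.0209). Its call was lost without Myriocin replicate 1 or 3 or No-myriocin replicate 2 (limma adjusted p from 0.0547 to 0.065). With the replicate number as a block GPT2 stayed called (SE 0.08, limma adjusted p = 0.00587). SCT1, which encodes the other acyltransferase of this step, fell by 0.31 (SE 0.09, limma adjusted p = 0.0322). That call was lost without Myriocin replicate 2 or 3 or No-myriocin replicate 1 or 2 (limma adjusted p from 0.0687 to 0.0909), and control-scaled SCT1 stood at 0.0054. SLC1, the gene of the next step from lysophosphatidate, had log2 signals of 12.64, 12.80 and 12.79 in Myriocin and 13.47, 13.58 and 13.47 in No-myriocin cultures. Its groups were far apart for their spread, and SLC1 fell by 0.77 (SE 0.08, limma adjusted p = 0.000675).

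**Figure D2:**
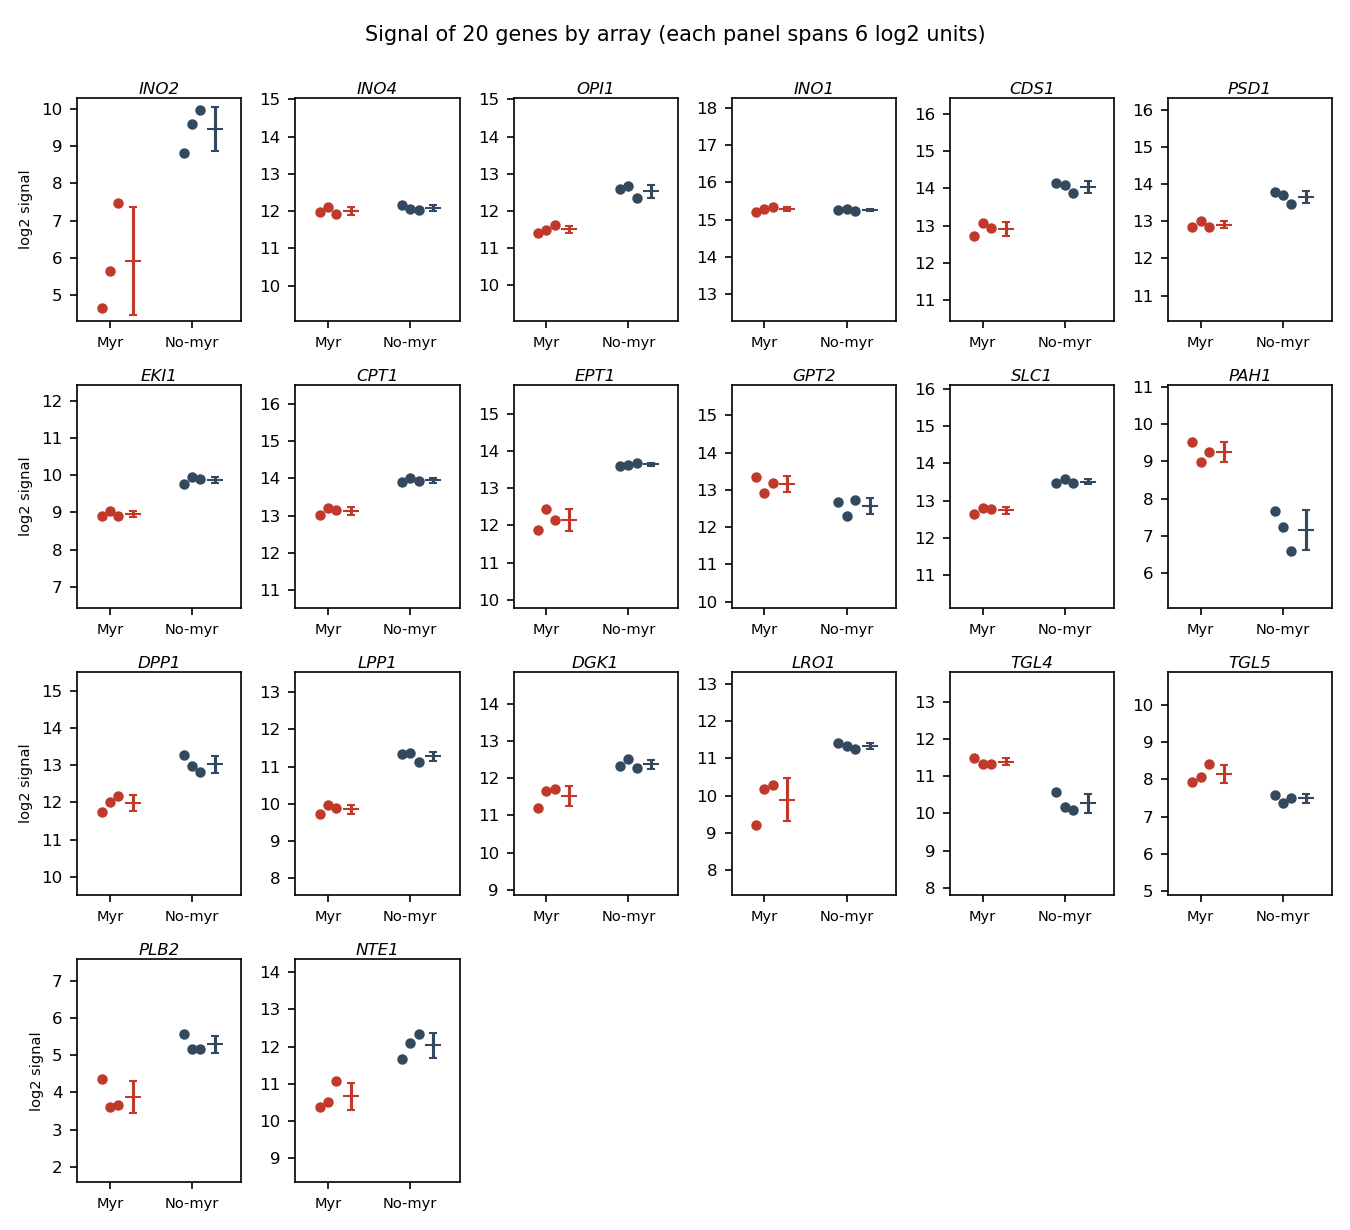
Log2 signal (y axis, 6 log2 units in every panel) on each of the 3 Myriocin (left, red) and 3 No-myriocin (right, blue) arrays for the 18 called genes with a log2 fold change of at least 0.5 in size and groups that do not overlap, with INO1 and INO4. Points are arrays and bars are mean ± SD. INO2 spans 4.64 to 7.48 in Myriocin cultures, while INO1 lies near 15.3 on every array.

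Of the 5 triacylglycerol genes 3 rose, against 25.5% of all genes, and 1 fell, against 28.8% of all genes. The counts were the same control-scaled. TGL4, a lipase gene whose product also has phospholipase activity, had log2 signals of 11.50, 11.32 and 11.33 in Myriocin and 10.56, 10.16 and 10.10 in No-myriocin cultures and rose by 1.11 (SE 0.14, limma adjusted p = 0.00123). TGL5, a related lipase gene, had log2 signals of 7.93, 8.08 and 8.40 in Myriocin and 7.59, 7.37 and 7.51 in No-myriocin cultures and rose by 0.65 (SE 0.14, limma adjusted p = 0.0089). TGL3, which encodes the major lipase of lipid droplets, had overlapping groups and a log2 fold change of -0.04 (SE 0.14, limma adjusted p = 0.834), or 0.28 control-scaled.

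The acyltransferase genes that make triacylglycerol went opposite ways. LRO1, whose enzyme takes the acyl chain from a phospholipid, had log2 signals of 9.22, 10.17 and 10.28 in Myriocin and 11.42, 11.34 and 11.26 in No-myriocin cultures. Myriocin replicate 1 was the lowest by far, and LRO1 fell by 1.45 (SE 0.28, limma adjusted p = 0.00616), or by 1.11 without that replicate. DGA1, whose enzyme uses acyl-CoA, had log2 signals of 12.50 to 12.66 in Myriocin and 12.08 to 12.19 in No-myriocin cultures and rose by 0.43 (SE 0.08, limma adjusted p = 0.00523).

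Of the 4 genes of phospholipase B enzymes 2 fell, against 28.8% of all genes, and none rose, against 25.5%. Control-scaled 2 fell and 1 rose. NTE1 encodes the enzyme that deacylates phosphatidylcholine inside the cell. Its log2 signals were 10.38, 10.52 and 11.08 in Myriocin and 11.68, 12.09 and 12.33 in No-myriocin cultures, and NTE1 fell by 1.37 (SE 0.24, limma adjusted p = 0.00411). PLB2, a phospholipase B gene of the cell surface, lay closest to background among the 38, with log2 signals of 4.36, 3.60 and 3.67 in Myriocin and 5.56, 5.17 and 5.16 in No-myriocin cultures. It fell by 1.42 (SE 0.23, limma adjusted p = 0.00316), and the groups did not overlap for either gene. PLB1, whose gene is separated from PLB2 by 1 annotated gene in RefSeq R64, had a log2 fold change of 0.15 (SE 0.11, limma adjusted p = 0.274), or 0.47 control-scaled (limma adjusted p = 0.0314). PLB3 had a log2 fold change of -0.25 (SE 0.24), or 0.07 control-scaled, with Myriocin cultures spread from 11.75 to 12.71 around the No-myriocin range of 12.46 to 12.63.

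In cardiolipin synthesis neither gene was called, against 25.5% of all genes called higher and 28.8% called lower. CRD1, the cardiolipin synthase gene, had log2 signals of 10.73, 10.31 and 10.56 in Myriocin and 10.28, 10.20 and 10.25 in No-myriocin cultures. The groups did not overlap, and its log2 fold change of 0.29 (SE 0.11, limma adjusted p = 0.0745) became a call control-scaled, at 0.60 (0.00912), and without Myriocin replicate 2 (0.0169). PGS1, which encodes the synthase that begins this branch, had a log2 fold change of -0.21 (SE 0.11, limma adjusted p = 0.142), turning to 0.11 control-scaled, and was called lower without Myriocin replicate 3 (0.0318).

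Of the 18 genes with called log2 fold changes of at least 0.5 in size, 4 higher and 14 lower, all 18 stayed called in the same direction control-scaled. The 15 genes that were not called had log2 fold changes from -0.40 to 0.29, and for 3 of them the groups did not overlap.

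The replicates of a group did not fall evenly for these genes. Myriocin replicate 1 was the lowest of its group for 28 of the 38, against 32.1% of all genes, and No-myriocin replicate 3 was the lowest of its group for 25, against 35.0% of all genes. Genes of the pathway share these arrays and are not independent. Leaving out each array in turn gave 4 to 6 genes higher and 15 to 18 lower, and without Myriocin replicate 1 the log2 fold changes of TGL3 and PLB3, neither of them called, turned to 0.017 and 0.027. TGL3 stood at 0.10 without No-myriocin replicate 1, and INO1 at -0.0063 without Myriocin replicate 3.

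Pairs of genes at opposed, parallel or successive steps were then compared within each array, where a shift of the whole array cancels. The measure was the log2 fold change of one gene minus that of the other. For 13 of 16 pairs the within-array ratios of the groups did not overlap, each with the smallest p that 3 arrays against 3 allow (two-sided exact permutation p = 0.1, or 0.123 after Benjamini-Hochberg adjustment over the pairs), so no pair could pass a threshold of 0.05. These permutations and SEs treated the arrays as unpaired and did not keep like-numbered replicates together. The pairs were chosen with earlier results known and no share over other gene pairs was computed, so the count of 13 has no background to be read against. The difference of PAH1 from DGK1 was 2.93 (SE 0.42), that of INO2 from INO4 was -3.45 (SE 0.94), and the difference of LRO1 from DGA1 was -1.88 (SE 0.31). Among these 13 pairs were also paralogs and enzymes of parallel steps. The difference of EPT1 from CPT1 was -0.66 (SE 0.12), of EKI1 from CKI1 -0.80 (SE 0.12), of PLB2 from PLB1 -1.57 (SE 0.32), and of GPT2 from SCT1 0.89 (SE 0.15). PSD2 differed from PSD1 by 0.41 (SE 0.05), LPP1 differed from DPP1 by -0.38 (SE 0.13), and TGL3 from TGL4 by -1.15 (SE 0.11). For the methyltransferase genes CHO2 and OPI3 the difference was -0.22 (SE 0.04), for ECT1 and PCT1 it was -0.27 (SE 0.06), and for CRD1 and PGS1 it was 0.50 (SE 0.18). Ratios overlapped for ITR2 against ITR1 (-0.09, SE 0.11, exact permutation p = 0.6), TGL5 against TGL4 (-0.47, SE 0.22, exact permutation p = 0.2) and PLB3 against PLB1 (-0.40, SE 0.24, exact permutation p = 0.2).

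**Figure D3:**
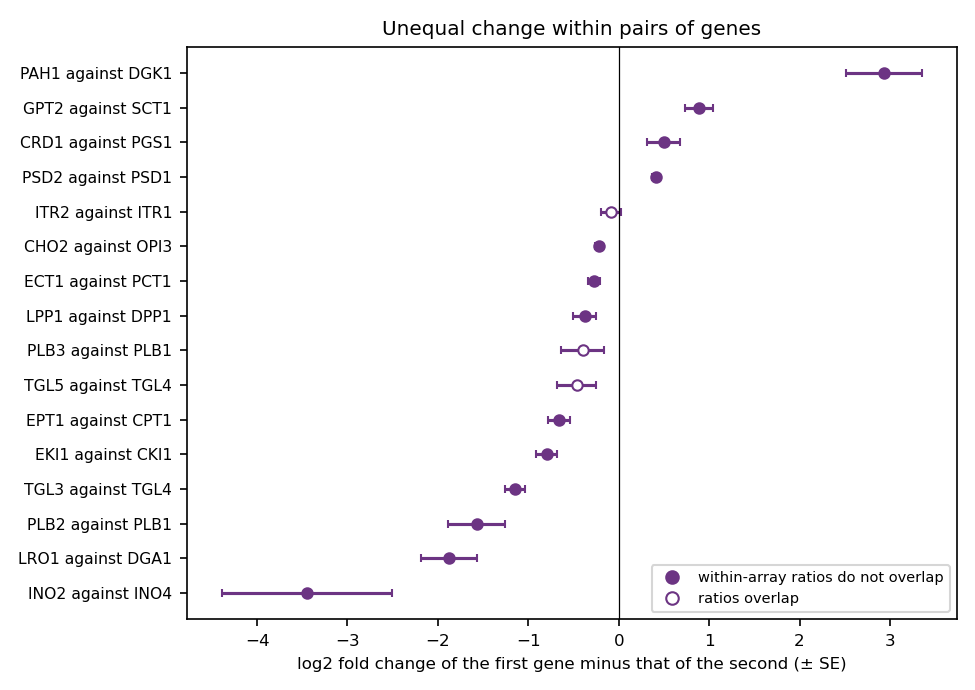
Log2 fold change of the first gene minus that of the second (x axis, ± SE from 3 Myriocin and 3 No-myriocin arrays) for the 16 pairs. Filled points are the 13 pairs whose within-array ratios do not overlap between groups, from INO2 against INO4 at -3.45 to PAH1 against DGK1 at 2.93, and open points are the 3 pairs whose ratios overlap.

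Further genes of the pathway were read from 7 lists. Of 62 measured genes 20 rose and 18 fell, shares of 32.3% and 29.0% against 25.5% and 28.8% of all genes. Control-scaled, 30 rose and 9 fell, and with the replicate block 21 rose and 16 fell.

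Kinases and phosphatases of phosphoinositides set the phosphorylated forms of phosphatidylinositol on each membrane. Of the 15 genes on the list for these enzymes 10 rose (66.7%, against 25.5% of all genes) and STT4 fell (median log2 fold change 0.60). Leaving out single arrays left 7 to 9 higher. Control-scaled 11 rose and none fell. INP53, a phosphoinositide phosphatase gene, rose by 1.11 (SE 0.14, limma adjusted p = 0.00133). INP54, another, and VPS34, the phosphatidylinositol 3-kinase gene, each rose 2.0-fold (limma adjusted p = 0.00154 and 0.00169). STT4, a phosphatidylinositol 4-kinase gene of the plasma membrane, fell by 0.63 (SE 0.08), a call lost control-scaled (limma adjusted p = 0.0875).

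Of genes for steryl esters, lipid droplets and neutral lipid hydrolysis 8 of 13 fell (61.5%, against 28.8% of all genes) and 2 rose (15.4%, against 25.5%). Their median log2 fold change was -0.54. Control-scaled 4 rose and 5 fell, and with the replicate block 3 rose and 7 fell. YEH1, a steryl ester hydrolase gene, had log2 signals of 7.59, 8.27 and 7.85 in Myriocin and 10.59, 10.71 and 9.97 in No-myriocin cultures and fell by 2.52 (SE 0.25, limma adjusted p = 0.000608). ARE2, the main sterol acyltransferase gene, had log2 signals of 7.29, 8.59 and 9.26 in Myriocin and 10.59, 9.99 and 10.94 in No-myriocin cultures and fell by 2.12 (SE 0.52, limma adjusted p = 0.0147). The call of ARE2 was lost in an equal-variance comparison of the same values (adjusted p = 0.0594). SEI1, the gene of seipin, fell by 1.08 (SE 0.15). Against these, PLN1, which encodes a coat protein of lipid droplets, had log2 signals of 13.00, 12.90 and 13.31 in Myriocin and 10.83, 10.51 and 10.67 in No-myriocin cultures. PLN1 rose by 2.40 (SE 0.14, limma adjusted p = 0.000134), and the lipid droplet hydrolase gene LDH1 rose by 0.48 (SE 0.10).

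On the list of acyl transfer and lysophosphatidate supply 5 of 6 genes fell (83.3%, against 28.8% of all genes, median -0.73). Leaving out single arrays left 3 or 4 lower, the replicate block 4 and control scaling 3. The lysophospholipid acyltransferase gene ALE1 fell by 0.97 (SE 0.12), CST26, an acyltransferase gene of phosphatidylinositol, by 0.84 (SE 0.13) and LOA1, a lysophosphatidate acyltransferase gene, by 0.83 (SE 0.08), while AYR1, the gene of the reductase that makes lysophosphatidate, rose by 0.44 (SE 0.09). In a list of other regulators that also held INM2, 3 of 9 genes rose (33.3%, against 25.5% of all genes). HAC1, the transcription factor gene of the unfolded protein response, rose by 0.92 (SE 0.07). SIN3, a subunit gene of the histone deacetylase complex that represses INO1, rose by 0.49 (SE 0.07). INM2, a second inositol monophosphatase gene and not a regulator, rose by 0.71 (SE 0.09). NEM1 and SPO7 encode the phosphatase complex that activates Pah1. NEM1 fell by 0.25 (SE 0.09, limma adjusted p = 0.0494), a call lost without any 1 array but Myriocin replicate 3 (0.0974 to 0.129), with the replicate block (0.0761), with equal array medians (0.0546) and with an intensity trend and robust variance (0.0582). Control-scaled NEM1 turned to 0.062, while SPO7 had a log2 fold change of 0.03.

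In recycling of phospholipid head groups 1 of 6 rose (16.7%, against 25.5% of all genes) and 2 fell (33.3%, against 28.8%). Control-scaled 3 rose and 1 fell. HNM1, the choline transporter gene, fell by 0.75 (SE 0.12), and ISC1, the gene of the inositol phosphosphingolipid phospholipase, rose by 0.50 (SE 0.07). GIT1, the glycerophosphoinositol transporter gene, lay close to background at 2.45 to 2.92 in Myriocin and 3.02 to 3.94 in No-myriocin cultures and fell by 0.94 (SE 0.27), a call lost control-scaled (limma adjusted p = 0.0794) and without Myriocin replicate 1 or 2 or No-myriocin replicate 1 or 3 (0.0675 to 0.0788). Of the mitochondrial cardiolipin list 2 of 8 rose, against 25.5% of all genes, and 1 fell, against 28.8%. Control-scaled 4 rose and none fell. TAZ1, the gene of the transacylase that remodels cardiolipin, rose by 0.35 (SE 0.08), and GEP4, the phosphatidylglycerophosphatase gene, fell by 0.58 (SE 0.09), a call lost control-scaled (limma adjusted p = 0.119). CLD1, a cardiolipin deacylase gene, rose by 0.90 (SE 0.27) with signals of 3.26 to 4.28 in Myriocin and 2.83 to 3.17 in No-myriocin cultures, a call lost without Myriocin replicate 1 or 3 or No-myriocin replicate 1 or 2 (limma adjusted p from 0.0735 to 0.1), with quantile normalisation (0.0575) and with values floored at background (0.0543). Of the 5 inositol phosphate kinase list genes, VIP1 was called, rising by 0.64 (SE 0.09), and control-scaled 4 rose.

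**Figure D4:**
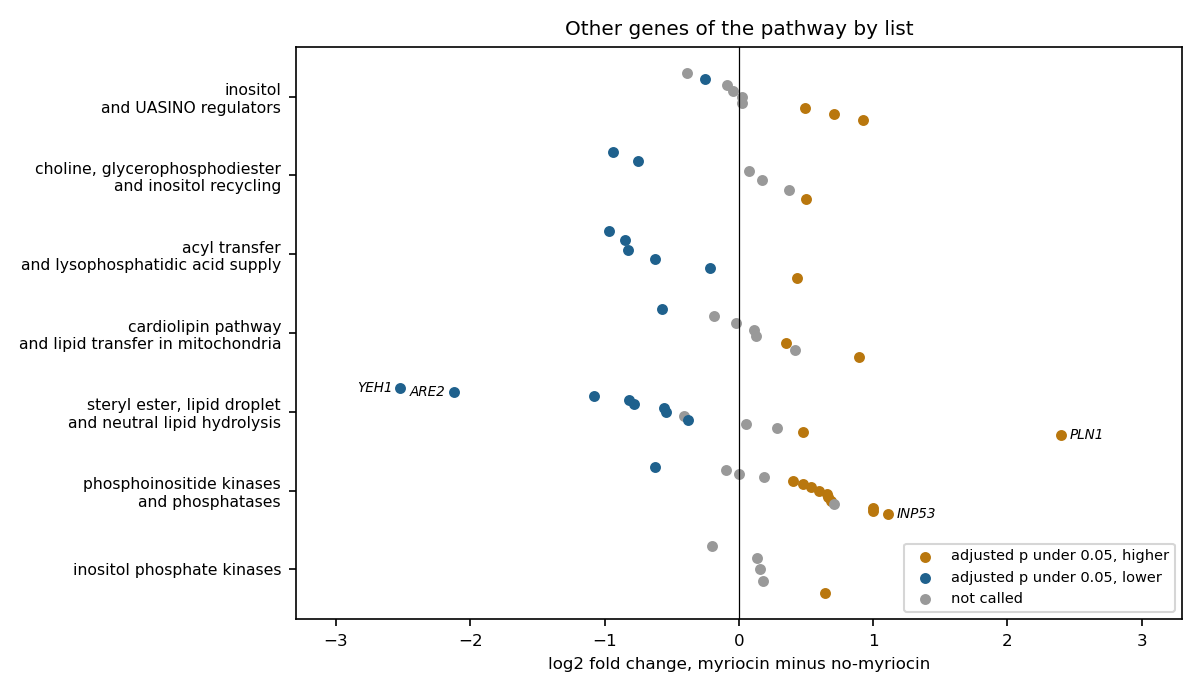
Log2 fold change (Myriocin minus No-myriocin, x axis, n = 3 per group, deposited values) of 62 further genes in 7 lists. Each point is a gene, coloured by its call, and those farthest out are named. YEH1 at -2.52 and PLN1 at 2.40 lie farthest out, and control-scaled all points move to the right by 0.315.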

How the data were processed

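Total RNA from 6 yeast cultures was labelled with biotin and hybridised to single-colour 3' expression arrays, per the labels' protocols. The authors deposited 1 normalised log2 signal per probe set. Partek is named, per the submitters' processing notes; the sources used here give neither its version nor how signals were normalised. The log2 scale was settled from the files: the log2 of the authors' deposited ratio and the difference of group means were within 8.48e-05 of each other. That table's p-values come from the authors' own comparison, per the file headers.

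Of 5900 probe sets, 184 were controls, 5421 were named from the platform annotation updated through RefSeq R64, 24 from the authors' table, 79 named several genes and 192 were unnamed here. Where a gene had several probe sets (24 genes), that of the highest mean signal stood for it, which gave 5420 genes. The authors' lists of genes with small p-values were not used for names, since they hold such genes alone. The 2 groups of 3 arrays were fitted by lmFit and eBayes of limma 3.58.1 (R 4.3.3), two-sided, with neither covariate nor filter, after the script was tested on simulated data. The background ceiling is the highest value of 50 negative-control probe sets. No arrays shared more than 0.055% of values. Figures were drawn with matplotlib 3.10.9.

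The members, the lists, the pairs and the tests were chosen with earlier results of these data known. Every member is named. Values per array are given for INO1, INO2, INO4, OPI1 and members with adjusted p under 0.05, a log2 fold change of at least 0.5 in size and groups that do not overlap. Of each further list, up to 3 called genes in each direction are named, and SPO7 was added after its value was seen. GPC1 had no probe set named here, and PSI1 and CST26 are names of 1 gene in RefSeq. A planned search of promoter sequences was not run.

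The labels number the replicates of both groups 1 to 3. Across genes, deviations of like-numbered arrays from their group means had correlations of 0.169, 0.233 and 0.175, and those of other array pairs lay between -0.151 and -0.0552. Deviations from a group mean cancel out within the group, so positive values for like-numbered arrays force negative ones among the others. The negative values are thus no separate evidence of pairing. From the like-numbered correlations the numbers were taken as pairing the samples by the data. The blocked fit is given where it changes the call of a named gene or a count of a further list. The main fit, the fits without 1 array, the SEs outside the blocked fit and the pair comparisons leave this pairing out. Alternatives were quantile normalisation, equal array medians, scaling to the hybridisation controls, leaving out the dimmest 25% of genes, averaging probe sets, a background floor, a robust variance with an intensity trend, the replicate block, an equal-variance comparison, each replicate left out, and a threshold of 0.01.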

Additional observations from a re-analysis of the deposited data

How the results depend on the processing

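With control scaling, members called higher were 8 and members called lower 14, and of all tested, genes called higher were 2164 and genes called lower 651, against 1384 and 1562 in the deposited values. With the dimmest 25% of genes left out, which removes PAH1, TGL5, INO2 and PLB2, 3 members were higher. At a threshold of 0.01, genes called lower numbered 966. Control scaling turned the sign of CHO1 (0.097), SCT1 (0.0054), CKI1 (0.19), ECT1 (0.13), INO4 (0.23), ITR1 (0.20), ITR2 (0.11), OPI3 (0.22), PGS1 (0.11), PIS1 (0.21), PLB3 (0.069), TGL3 (0.28) and NEM1 (0.062). Without single arrays the log2 fold change ranged from -0.0063 to 0.052 for INO1, -0.45 to 0.027 for PLB3 and -0.11 to 0.10 for TGL3, and the difference of ITR2 from ITR1 from -0.15 to 0.0067. Genes called higher ranged from 1101 to 1274 and genes called lower from 1176 to 1401. With the replicate block 5 members were higher and 18 lower, the calls of CHO1 and INM1 among the members changed as given, and no other member's call did. Among the further genes named it lost the call of NEM1. The equal-variance comparison lost the calls of GPT2, PSD2 and SCT1 and of ARE2, NEM1, GIT1 and CLD1. Signal near the top of the scale limits INO1, ITR1 and OPI3. Signal near background limits GIT1 and CLD1 among the further genes named, and also MUM3, which counts among the acyl transfer genes that fell.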
